A study of Homo sapiens with 4 samples.

Results

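CUT&Tag against ZNF217 gave 36356 peaks on chromosomes 1 to 22 and X of MV4-11 cells, and 7570 of them lay in introns away from start sites and overlapped no peak of U937 cells, out of 58093 ZNF217 peaks in the lists of both lines. The number depends on the lists: it was 2993 when the MV4-11 list was cut to its widest peaks, as many as U937 has, 5126 with a minimum width of 400 bp in both lists, and 4854 with that minimum in MV4-11 alone. These MV4-11 only intronic distal peaks were chosen by 3 readings of the peak lists: no overlap of even 1 bp with a U937 ZNF217 peak, a midpoint more than 1 kb from every TSS of a protein-coding or lncRNA gene in GENCODE 44, and a midpoint inside a protein-coding gene body but outside protein-coding exons. They made up 7570 of the 10068 intronic distal peaks of MV4-11, or 75.2% (95% interval 74.3 to 76.0), against 59.6% of all MV4-11 peaks without overlap. Since the lack of overlap selected them, this share is a description and supports nothing by itself. The other 2498 intronic distal peaks of MV4-11 are called shared here, and 2577 intronic distal peaks of U937 overlapped no MV4-11 peak and are called U937 only.

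Both lines are untreated, established human myeloid leukemia lines. MV4-11 holds the KMT2A-AFF1 fusion and U937 the PICALM-MLLT10 fusion. Each line has a ZNF217 and an IgG sample in the labels, of which the IgG samples were not analysed here. With 1 ZNF217 library per line and lists that hold only positions, no difference between lines could be set against replicates, depth is unknown, and a region without a U937 peak is not shown to be free of ZNF217 in U937. All intervals are 95% intervals that cover counting error only.

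ZNF217 is a C2H2 zinc finger protein that binds DNA and works with the CoREST, LSD1 and CtBP corepressors. Introns of active genes often hold enhancers, which in myeloid cells are typically built around PU.1, RUNX1, C/EBP and AP-1 sites. KMT2A fusion proteins keep a group of stem cell genes active, among them MEIS1, the HOXA genes and FLT3.

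The sequences of 9 regions are given as examples. They are the widest members in genes of the blood gene lists that hold a match to a PU.1, RUNX, C/EBP, AP-1 or ZNF217 motif within 100 bp of the midpoint, 1 for PU.1 and a pair for each other motif. This choice makes them untypical. Of all members 59.8% held none of these motifs in the central 300 bp, and the median width was 467 bp. Every window is 200 bp of the plus strand of hg38, with matches to any of these 5 motifs in capitals and all other bases in lower case. The letters searched on both strands were GAGGAAGT for PU.1, TGTGGTT for RUNX, TTGCNNAA for C/EBP and TGACTCA for AP-1, where N is any base. The ZNF217 motif was A or T, A or G, CAGAA, and any base but A. Intron numbers count from the 5′ end of the longest transcript of the gene.

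The PU.1 window came from MEIS1, a homeobox partner of HOXA9. It also held a RUNX match, and its peak was 700 bp wide and 33.9 kb from the nearest U937 peak.
MEIS1 intron 7 (chr2:66481202-66481401): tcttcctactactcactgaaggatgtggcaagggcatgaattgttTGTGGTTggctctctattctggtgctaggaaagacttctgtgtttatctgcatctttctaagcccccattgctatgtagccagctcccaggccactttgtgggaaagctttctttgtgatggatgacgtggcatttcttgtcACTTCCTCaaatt

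The RUNX pair came from PIK3AP1, an adaptor of phosphoinositide 3-kinase, and KIT, the stem cell factor receptor. The KIT peak was 1113 bp wide, and the nearest U937 peak lay 623 kb away.
PIK3AP1 intron 2 (chr10:96658271-96658470): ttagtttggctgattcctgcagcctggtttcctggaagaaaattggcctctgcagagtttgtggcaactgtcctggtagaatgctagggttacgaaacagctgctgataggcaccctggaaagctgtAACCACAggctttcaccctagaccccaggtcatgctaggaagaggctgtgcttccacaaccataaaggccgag
KIT intron 1 (chr4:54688054-54688253): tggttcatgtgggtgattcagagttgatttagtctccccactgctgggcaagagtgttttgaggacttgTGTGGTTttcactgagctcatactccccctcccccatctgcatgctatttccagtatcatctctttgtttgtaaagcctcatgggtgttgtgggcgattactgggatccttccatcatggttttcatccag

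The C/EBP pair came from INSR, the insulin receptor, and ARHGEF3, a guanine nucleotide exchange factor gene. In the ARHGEF3 window the C/EBP match runs directly into a RUNX match, and the bases they share are counted for both.
INSR intron 1 (chr19:7268404-7268603): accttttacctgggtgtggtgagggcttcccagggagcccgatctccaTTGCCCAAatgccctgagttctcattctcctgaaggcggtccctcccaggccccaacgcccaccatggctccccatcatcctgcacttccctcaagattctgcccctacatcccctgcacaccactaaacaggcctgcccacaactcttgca
ARHGEF3 intron 5 (chr3:56773533-56773732): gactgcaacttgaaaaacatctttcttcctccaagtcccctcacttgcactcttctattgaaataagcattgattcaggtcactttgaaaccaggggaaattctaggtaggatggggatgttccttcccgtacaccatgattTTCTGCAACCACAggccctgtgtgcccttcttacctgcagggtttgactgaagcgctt

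Both AP-1 windows came from MEF2D, a MADS-box factor of the circuit proposed by the study. These peaks were 2047 and 1332 bp wide.
MEF2D intron 8 (chr1:156475692-156475891): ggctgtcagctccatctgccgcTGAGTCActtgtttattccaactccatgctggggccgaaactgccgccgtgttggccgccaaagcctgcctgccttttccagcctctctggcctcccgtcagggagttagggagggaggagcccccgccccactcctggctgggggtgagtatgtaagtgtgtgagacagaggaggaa
MEF2D intron 1 (chr1:156496381-156496580): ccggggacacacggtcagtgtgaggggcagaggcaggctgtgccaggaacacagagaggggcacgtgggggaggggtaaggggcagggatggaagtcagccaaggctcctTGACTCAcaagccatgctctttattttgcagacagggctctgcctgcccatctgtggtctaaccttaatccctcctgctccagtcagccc

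The ZNF217 pair came from CSF1R, the receptor of macrophage colony-stimulating factor, and CBFA2T3, a corepressor of the ETO family.
CSF1R intron 2 (chr5:150081904-150082103): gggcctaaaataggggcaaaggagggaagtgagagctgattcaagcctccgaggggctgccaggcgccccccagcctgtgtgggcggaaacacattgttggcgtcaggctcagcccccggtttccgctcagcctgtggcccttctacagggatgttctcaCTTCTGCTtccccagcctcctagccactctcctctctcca
CBFA2T3 intron 5 (chr16:88887775-88887974): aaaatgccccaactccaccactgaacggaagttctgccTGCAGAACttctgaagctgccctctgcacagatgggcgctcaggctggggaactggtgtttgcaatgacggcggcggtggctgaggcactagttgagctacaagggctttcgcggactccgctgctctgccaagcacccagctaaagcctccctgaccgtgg

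Motif content was not used to choose the peaks, so it can be compared between classes. The PU.1 motif was present in the central 300 bp of 377 members, or 4.98% (4.51 to 5.49), 3.05 times (2.76 to 3.36) the 1.64% expected from intronic windows of the same GC content. RUNX was held by 778 members, 10.3% (9.61 to 11.0), which is 2.36 times (2.21 to 2.52) the expected 4.36%. AP-1 followed at 7.44% (6.87 to 8.05) and 1.61 times, C/EBP at 12.3% (11.55 to 13.03) and 1.48 times, and the ZNF217 motif at 16.2% (15.4 to 17.1) and 1.22 times (1.16 to 1.29). The expectation comes from all 3687985 windows of 300 bp in eligible intron, that is, intron where a peak midpoint could have met the rule, each GC class weighted as in the members. Without that weighting 1.51% of the windows held PU.1, 5.69% RUNX, 4.51% AP-1, 15.5% C/EBP and 18.1% the ZNF217 motif, so that C/EBP and ZNF217 motifs were less frequent in members than in intron at large and more frequent only at equal GC content.

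CTCF, the insulator protein, had the highest ratio of the 24 motifs searched: 144 members held its motif, 1.90% (1.62 to 2.24), or 5.14 times (4.37 to 6.04) the expected 0.370%. The composite PU.1-IRF motif GGAANNGAA, which can overlap a PU.1 match, stood at 9.48% (8.85 to 10.2) and 1.56 times. GATA, forkhead (FOX), HOX/PBX, NF-kB, TEAD and octamer motifs were within counting error of the intronic windows of the same GC content, with ratios of 1.02, 1.001, 0.983, 1.01, 0.992 and 0.939. MEIS, the homeobox motif TGACAG, was at 1.06 times (1.01 to 1.10). The letters searched were TGTTTAC for forkhead, TGATTTAT for HOX/PBX, ACATTCC for TEAD, ATGCAAAT for octamer and AGATAA for the GATA family, with NF-kB and CTCF searched by degenerate patterns. Against GC-weighted windows 14 motifs lay above, 1 (the E-box CAGNTG, at 0.976 times) lay below and 9 had an interval that held 1. This tally rests on the weighting. Against all windows without weights members had less of GATA (8.47% against 20.98%), MYB (19.6% against 27.4%), IRF (7.08% against 11.4%), STAT (7.28% against 9.77%), FOX (2.36% against 4.68%), octamer (0.832% against 2.84%) and HOX/PBX (0.594% against 2.49%), and more of the E-box (65.1% against 49.8%) and NF-kB (8.85% against 3.23%).

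**Figure D1:**
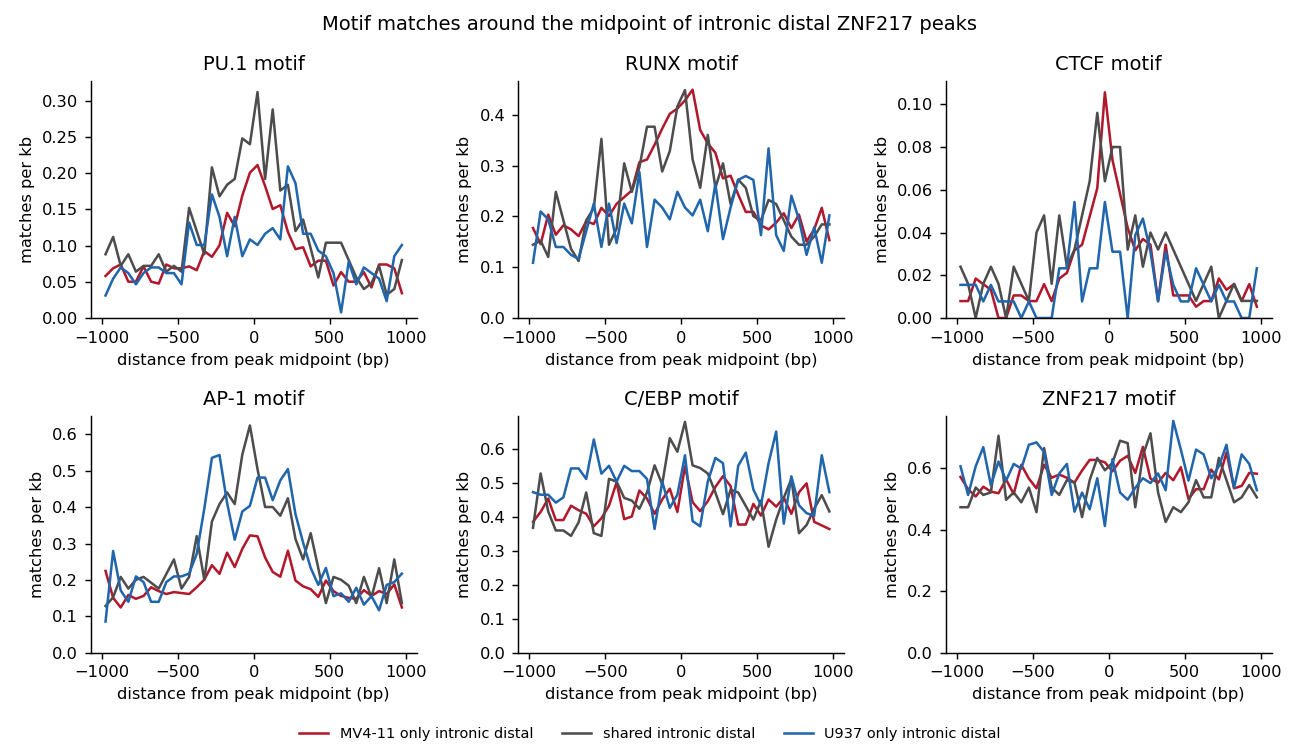
Motif matches per kb (vertical axes, from 0) in bins of 50 bp against distance from the peak midpoint in bp, for MV4-11 only (red), shared (grey) and U937 only (blue) intronic distal peaks. PU.1, RUNX and CTCF matches of the red line rise towards the midpoint, and for RUNX the blue line rises less.

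The matches gathered at the middle of the peaks, as the plot of matches by distance shows. Within 100 bp of the midpoint members held 0.423 RUNX matches per kb (0.391 to 0.457), 2.39 times the 0.177 per kb found more than 700 bp away. PU.1 was 3.14 times and CTCF 6.40 times as dense at the middle as in the flanks. C/EBP and ZNF217 motifs were nearly level, at 1.14 and 1.11 times. U937 only peaks had 0.215 RUNX matches per kb (0.177 to 0.259) at the middle and 0.164 in the flanks, a ratio of 1.32. In their central 300 bp RUNX was at 1.38 times (1.19 to 1.61) the GC-weighted windows. Their PU.1 matches stood at 0.103 per kb (0.0770 to 0.135) at the middle. These were densest off centre, at 0.210 and 0.186 per kb in the bins 225 and 275 bp to the right of the midpoint.

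Members and U937 only peaks differed in 12 of 24 motifs, 10 of them more frequent in members. RUNX led, with 10.3% of members against 6.09% (5.23 to 7.08) of U937 only peaks, a difference of 4.19 points (2.99 to 5.30). PU.1-IRF was 4.01 points (2.87 to 5.07) higher, MYB (TAACNG) 3.33 points (1.62 to 4.98, within counting error in peaks of 400 bp or more), the ZNF217 motif 3.20 points (1.62 to 4.70), STAT (TTCNNNGAA) 1.88 points (0.788 to 2.90), PU.1 1.64 points (0.746 to 2.45) and CTCF 1.09 points (0.574 to 1.52). AP-1 went the other way: 7.44% of members but 11.4% (10.3 to 12.7) of U937 only peaks held it, a difference of -4.01 points (-5.42 to -2.69). The forkhead motif was also rarer in members, by -1.40 points (-2.27 to -0.637). C/EBP stood at 12.3% against 12.2%, with an interval of the difference from -1.46 to 1.48 points. For PU.1 the central 300 bp leave out the bins in which matches of U937 only peaks were densest. Over the whole peak the PU.1 difference was 1.95 points (0.814 to 2.99).

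**Figure D2:**
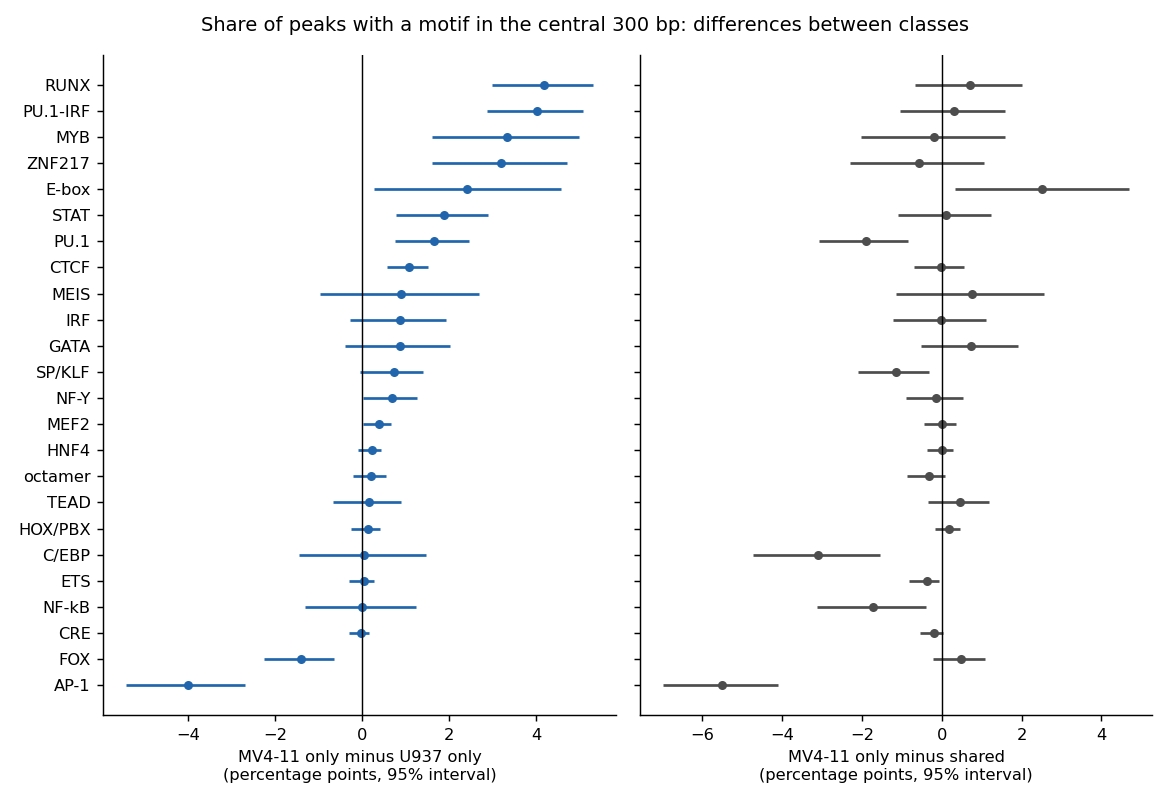
Differences in the share of peaks with each of 24 motifs in the central 300 bp, in percentage points, with 95% Newcombe intervals (lines) around the difference (points). MV4-11 only peaks minus U937 only peaks are on the left and minus shared peaks on the right, and AP-1 lies lowest in both panels.

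Against the shared peaks of the same library, members had less of 6 motifs and more of 1. AP-1 was 5.49 points lower (difference -5.49, interval -6.98 to -4.09), C/EBP -3.10 (-4.73 to -1.54), PU.1 -1.91 (-3.06 to -0.845) and NF-kB -1.72 (-3.13 to -0.395). The differences in RUNX (0.710 points, -0.676 to 2.01), PU.1-IRF (0.317, -1.04 to 1.59), MYB (-0.185, -2.02 to 1.58) and CTCF (-0.0193, -0.698 to 0.556) were within counting error. RUNX was thus present in 10.3% of members, 9.57% of shared and 6.09% of U937 only peaks, and AP-1 in 7.44%, 12.9% and 11.4% of the same classes. Shared peaks were wider than members, with medians of 757 and 467 bp. Within members RUNX stood at 8.07% (6.81 to 9.55) in the narrowest of 5 width classes (283 to 342 bp) and at 11.96% (10.4 to 13.7) in that from 527 to 720 bp, and AP-1 lay between 6.34% and 8.13% in all 5.

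Among peaks of 400 bp or more, 4854 members again had more RUNX than U937 only peaks, 11.2% against 6.71% (difference 4.54, 2.99 to 5.96), and less AP-1, 7.44% against 13.8% (difference -6.34, -8.19 to -4.61). The interval held 0 for MYB (1.85, -0.329 to 3.93), MEF2 (0.477, -0.0114 to 0.848) and C/EBP (-0.451, -2.36 to 1.34). At this width RUNX also exceeded its share in the shared peaks, 9.59%, by 1.66 points (0.0968 to 3.15). MV4-11 only peaks outside genes, 7042 in number, had RUNX in 10.7% and PU.1 in 5.20%, within counting error of the members. Members had less of 6 motifs than these and more of 1, and CTCF differed by -1.15 points (-1.66 to -0.648) from 3.05%.

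Most members held none of the 5 blood and ZNF217 motifs in the central 300 bp: 4526, or 59.8% (58.7 to 60.9), against 53.4% (51.4 to 55.4) of shared and 63.4% (61.5 to 65.2) of U937 only peaks. Exactly 1 kind was present in 2345 members and several kinds in 699. PU.1 and RUNX together were found in 52 members, 0.687% (0.524 to 0.900). A match is only a run of letters, and no match says nothing about binding.

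The members were GC-rich. Their central 300 bp averaged 53.9% GC, close to the 53.4% of U937 only and below the 55.5% of shared peaks, whereas eligible intron averaged 40.9%. Windows of under 40% GC made up 48.3% of eligible intron and held only 55 members, 0.103 per Mb (0.0776 to 0.134). From 40% to 50% GC there were 5.67 members per Mb, from 50% to 60% 24.1 (23.3 to 24.8), and from 60% to 70% 72.0 (68.4 to 75.8). U937 only peaks were nearer in density in the same classes, from 10.5 per Mb (10.01 to 11.04) at 50% to 60% to 14.9 (13.2 to 16.6) at 60% to 70%. The ratio of members to U937 only peaks did not climb steadily, at 1.57 below 40% GC, 3.67 from 40% to 50%, 2.29 from 50% to 60% and 4.85 from 60% to 70%, beside 2.94 overall. GC content can also shape recovery of fragments in a CUT&Tag library, and its part in these densities was not tested.

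**Figure D3:**
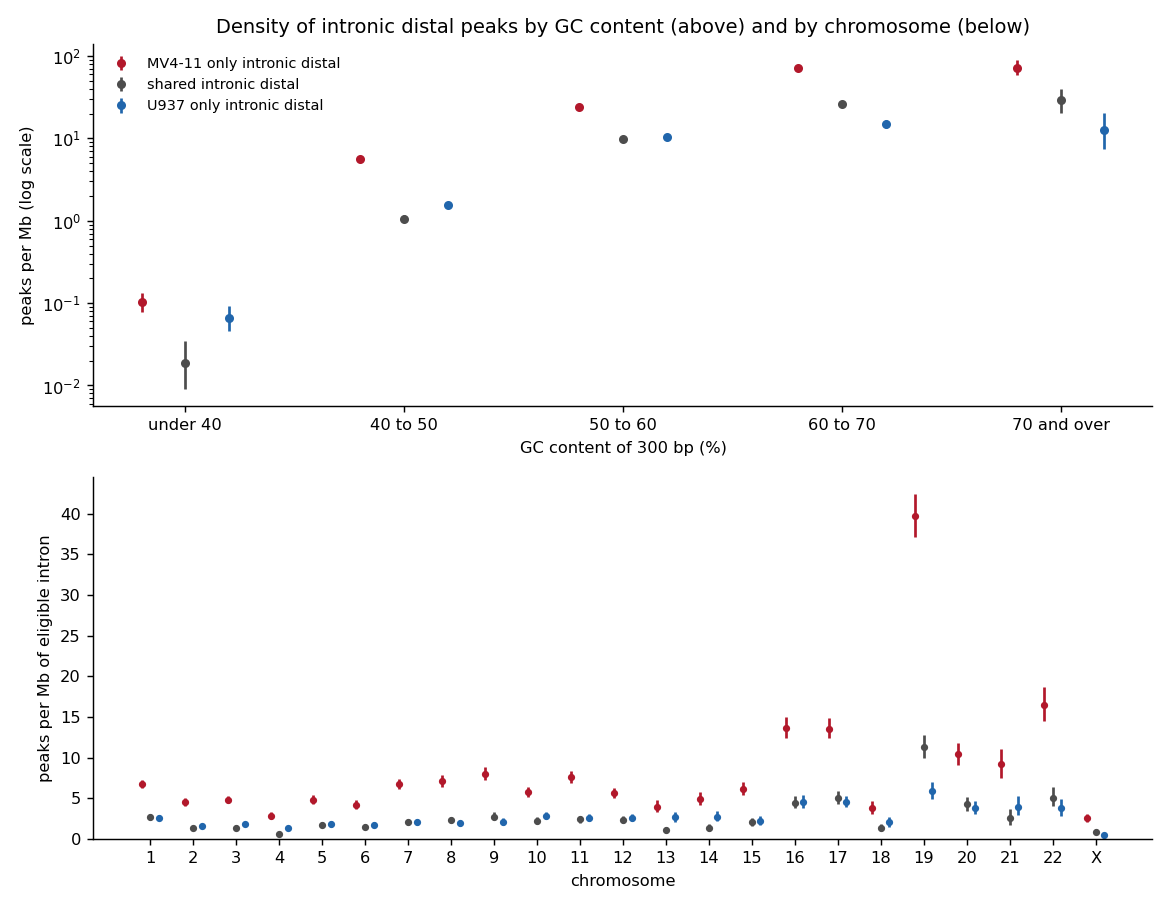
Above, peaks per Mb of eligible intron (log scale) by GC content of 300 bp in percent. Below, peaks per Mb by chromosome (linear scale from 0), with exact Poisson 95% intervals in both, MV4-11 only peaks in red, shared peaks in grey and U937 only peaks in blue; chromosome 19 stands highest in red at 39.7 per Mb.

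Chromosome 19, the most gene-dense human chromosome, held 894 members. At 39.7 per Mb of eligible intron (37.2 to 42.4) it stood far above chromosome 22 with 16.5, chromosome 16 with 13.6 and chromosome 17 with 13.6, while chromosome 4 had 2.80 and X 2.53. Its GC content alone gave 392 members, so the observed number was 2.28 times (2.13 to 2.44) that expectation. U937 only peaks on chromosome 19 numbered 132, 0.999 times (0.836 to 1.19) their own expectation from GC content. Shared peaks on it, 253 against 141 expected, were at 1.79 times (1.58 to 2.02). The cause of the difference between these classes was not tested. The zinc finger genes that crowd chromosome 19 held fewer members per Mb than its other genes, without adjustment for GC content. The 260 genes with such a symbol (ZNF, ZFP, ZSCAN and the like) had 30 members, 4.97 per Mb (3.35 to 7.09). That is 0.726 times (0.490 to 1.04) the density over all eligible intron. The other 1096 genes had 943, or 50.8 per Mb (47.6 to 54.2), members in several genes counted for each. Shared peaks (0.828 against 14.8 per Mb) and U937 only peaks (1.33 against 7.27 per Mb) were lower in these zinc finger genes too. Chromosome X was low in both classes, at 0.554 times (0.458 to 0.664) the expectation for members and 0.303 times (0.190 to 0.459) for U937 only peaks. Chromosome 13 had members at 0.837 times (0.692 to 1.003) the expectation, within counting error, and U937 only peaks at 1.69 times (1.34 to 2.10).

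Members lay nearer to start sites than intron in general. Their median distance to a TSS was 5.91 kb, beside 5.51 kb for shared and 7.36 kb for U937 only peaks. In the band from 1 to 5 kb, which held 22.6% of eligible intron, there were 3421 members, 45.2% (44.1 to 46.3), against 37.0% (35.2 to 38.9) of U937 only peaks. Density fell from 13.7 members per Mb in that band to 7.05 from 5 to 20 kb, 3.26 from 20 to 100 kb and 0.964 beyond 100 kb. An intron 1 of some transcript held 4227 members, 55.8% (54.7 to 57.0), where 46.6% of eligible intron is of that kind. That share was 6.53 points lower than in shared peaks (difference -6.53, -8.72 to -4.31) and within counting error of U937 only peaks (0.193 points, -2.02 to 2.42). By the longest transcript alone it was 34.5%, against 25.1% of eligible intron. Along genes with a single host annotation, 24.6% (23.6 to 25.6) of 7094 members fell in the 5′-most of 5 equal stretches and 16.9% (16.1 to 17.8) in the 3′-most.

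Members were narrower than shared peaks but close in width to the other classes without overlap. The median was 451 bp for U937 only peaks and 470 bp for MV4-11 only intergenic peaks, and 66.5% and 65.8% of these reached 400 bp. Member widths ran from 283 to 3723 bp with a median of 467, and 4854 members (64.1%) reached 400 bp. The widest member was in TPPP (3723 bp, chr5:671189-674912), a tubulin-binding gene, followed by PRKAR1B (3587 bp), a regulatory subunit of protein kinase A, CSPG4 (3261 bp), AHDC1 (3223 bp), ENSG00000268797 (3204 bp), CCDC200 (3148 bp), OSBPL5 (3027 bp) and a further CSPG4 peak (2950 bp). The narrowest, 283 bp each, were in ATP6V1B2, TRPS1 and PRSS3. The smallest width in the MV4-11 list was 283 bp and in the U937 list 330 bp, so 1218 members (16.1%) fell below the narrowest U937 width.

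The next U937 peak lay at a median of 11.6 kb from a member. Within 500 bp there was one for 233 members (3.08%), within 5 kb for 2483 (32.8%) and within 50 kb for 6026 (79.6%). Just inside the limit were members in ADAMTS7 (chr15:78761406-78761726), which touches a U937 peak with a gap of 0 bp, in KIF21B with a gap of 1 bp and in CLBA1 with a gap of 2 bp. Just outside were peaks in PADI1, ZCCHC24 and PACS2, which overlapped a U937 peak by 2, 3 and 5 bp. In all, 18 members had a gap of 50 bp or less and 28 shared peaks an overlap of 50 bp or less.

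Members were spread over 4112 of the 17965 protein-coding genes with eligible intron, 22.9% (22.3 to 23.5). A single member was found in 2423 genes, 2 to 4 in 1379 and 5 or more in 310. Of the 4112 member genes 943 (22.9%) also held a U937 only peak, where 1927 of all 17965 genes held one. These 943 were 48.9% of the genes with a U937 only peak, where 22.9% of all genes held a member. Intron length differs between these groups. Median eligible intron was 43.7 kb in member genes, 65.2 kb in genes with a U937 only peak and 22.3 kb in all genes. Some 476 members lie in more than 1 host gene and are counted for each.

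GSE1, which codes for a partner of the LSD1 and HDAC complexes, held the most members of any gene, 34 (chr16:85169525-85676204), beside 5 shared and 2 U937 only peaks. Its members spread from 76.6 to 491 kb from the gene's 5′ end and were 293 to 2028 bp wide. CLEC16A, a gene of endosomal and mitochondrial turnover, held 22 members, 1 shared and no U937 only peak, and 11 of its members lay within 41.4 kb in intron 18, among the densest groups of members found. TBC1D5, a Rab GTPase-activating protein, had 20 members, all in intron 1 of its longest transcript, with no shared and 1 U937 only peak. These 20 lay 1.25 to 697.5 kb from the 5′ end of a gene body drawn around all transcripts. They can therefore lie outside shorter transcripts of the gene. RUNX1, the core-binding factor itself, had 18 members, 7 shared and 7 U937 only peaks. The same limit holds for RUNX1, whose body has 1177 kb of eligible intron and whose members lay 11.5 to 1212 kb from its 5′ end. MAD1L1 (17 members) overlaps the gene ENSG00000286192 (18 members), so these are largely the same peaks, and PTPRN2 had 18.

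**Figure D4:**
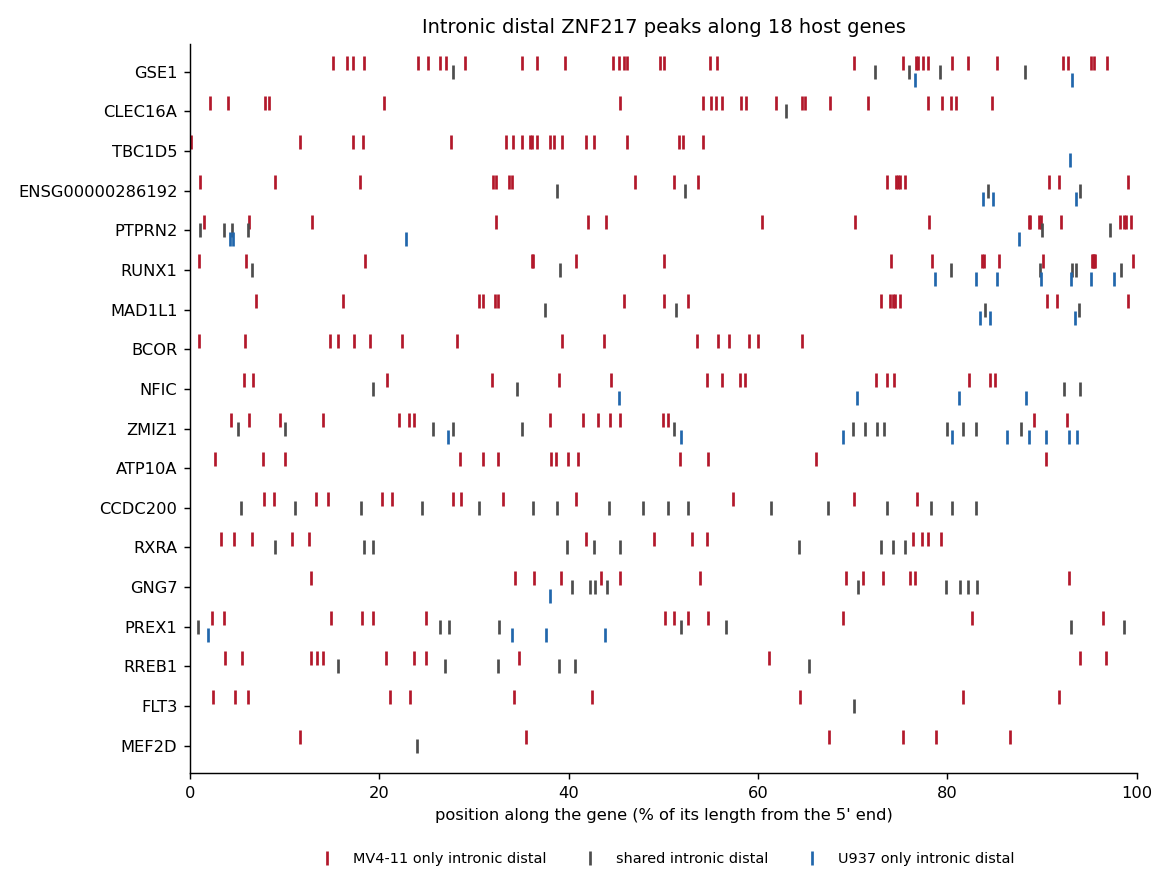
Position of each intronic distal peak along 18 host genes, in percent of gene length from the 5′ end, with MV4-11 only peaks in red, shared peaks in grey and U937 only peaks in blue. BCOR and ATP10A show red marks only, and CLEC16A 22 red marks against 1 grey.

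BCOR, a corepressor on chromosome X that is recurrently mutated in AML, held 16 members and no shared or U937 only intronic peak. All 16 lay in intron 1 of the longest transcript, 1.17 to 82.5 kb from the 5′ end, with widths of 315 to 2886 bp, and the nearest U937 peak of any kind was 79.5 to 160 kb away. ATP10A, a phospholipid flippase gene, had 14 members and neither of the other classes, and its members were 222 to 320 kb from any U937 peak. Both genes carried a promoter peak in MV4-11 only. NFIC, a nuclear factor I gene, had 16 members with 10 of them within 46.9 kb. ZMIZ1, a coactivator of Notch and androgen signalling, had 16 members but also 14 shared and 9 U937 only peaks. RXRA, the retinoid X receptor, had 13 members, 10 shared and no U937 only peak. GNG7, a G protein subunit gene, and PREX1, a Rac exchange factor, had 13 members each.

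CCDC200 held 13 members and 17 shared peaks in a body that contains 13 annotated copies of the U2 small nuclear RNA gene, a tandem repeat. None of its members overlapped a U2 copy, whereas 12 of its 17 shared peaks did. Reads from repeated copies cannot be assigned to 1 of them with certainty, and these members are therefore uncertain. Without them 7557 members remained.

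The genes with the most members per Mb among those with 4 or more members were mostly short. FASN, the fatty acid synthase gene, had 4 members in 5.76 kb of eligible intron, ALDH16A1, SCAF1, U2AF2, AGPAT2, PLCB3 and LSM4 had 4 each in 8.12 to 11.3 kb, and TPPP had 8 in 24.2 kb. TPPP had no shared and no U937 only peak and no promoter peak in either line. Other dense groups were 11 members within 44.2 kb in BAHCC1 and 11 within 43.9 kb in CCDC200, and 10 within 49.8 kb in GRAMD4. Of all members 29.6% had another member within 5 kb.

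Short genes were denser in members throughout. Of 5 equal classes of genes, that with the least eligible intron had 45.1 members per Mb (40.4 to 50.3) and that with the most 4.21 per Mb (4.07 to 4.35). For U937 only peaks these classes had 6.27 (4.57 to 8.39) and 1.57 (1.48 to 1.65) per Mb, and members per U937 only peak went from 7.20 (5.26 to 10.1) to 2.69 (2.52 to 2.87). Shared peaks had 14.9 (12.2 to 18.01) and 1.26 (1.18 to 1.33) per Mb. Without chromosome 19 the density of members in these classes was 38.5 and 4.06 per Mb. The share of genes that held a member went the other way. It was 8.02% in the class with the least eligible intron and 37.1% in that with the most.

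Genes with a ZNF217 peak at a promoter held more members. A gene with a promoter peak in both lines had 11.2 members per Mb (10.9 to 11.5) and a gene with one in MV4-11 only 11.4 (10.8 to 11.96), while a gene with none had 2.34 (2.21 to 2.48) and a gene with one in U937 only 2.95 (2.52 to 3.44). U937 only peaks had 3.73 per Mb (3.56 to 3.91) in genes with a promoter peak in both lines and 2.19 (1.94 to 2.46) in those with one in MV4-11 only. Members per U937 only peak were therefore 5.19 (4.57 to 5.92) where only MV4-11 had the promoter peak, 3.001 (2.84 to 3.17) where both had it and 1.07 (0.855 to 1.34) where only U937 had it.

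The gene lists compare introns by their density of members. All lists were chosen with earlier results of these data known, so their densities are descriptions and not independent evidence. The intervals count each peak separately, although members often lie near each other. Over all eligible intron there were 6.84 members, 2.26 shared and 2.33 U937 only peaks per Mb. The KMT2A fusion target program had 59 members, 16.5 per Mb (12.5 to 21.2). They lay in 16 of its 21 genes with eligible intron (76.2%, against 22.9% of all such genes, not matched for intron length). The program also had 7 shared peaks (1.95 per Mb, 0.785 to 4.02) and 6 U937 only peaks (1.67 per Mb, 0.614 to 3.64). This list had 9.83 members per U937 only peak (4.26 to 27.9), compared with 2.94 overall. Its introns are AT-rich, 38.5% GC on average, and held 4.93 times (3.75 to 6.35) the members that their GC content gives, while its U937 only peaks were 1.48 times (0.544 to 3.23) their expectation.

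FLT3, the receptor tyrosine kinase gene of early blood progenitors, and GNAQ had the most members of this list, 10 each. FLT3 also had 1 shared and no U937 only peak. Its 10 members were 305, 318, 329, 381, 391, 517, 627, 815, 995 and 1429 bp wide. Of these, 5 lay in intron 1, between 2.36 and 22.6 kb from the 5′ end, and the others in introns 2, 3, 9, 19 and 23. Their gaps to a U937 peak ran from 3.99 to 33.6 kb, and FLT3 had a promoter peak in MV4-11 only. GNAQ, a G protein alpha subunit gene, had 9 of its members in intron 1 and 1 in intron 2, and no peak of the other classes. ZEB2, a zinc finger E-box factor, had 6 members, all in intron 2 and between 302 and 603 bp wide, with 1 U937 only peak. CDK6, the cell cycle kinase gene, had 6 members from 291 to 981 bp wide and no other intronic distal peak.

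**Figure D5:**
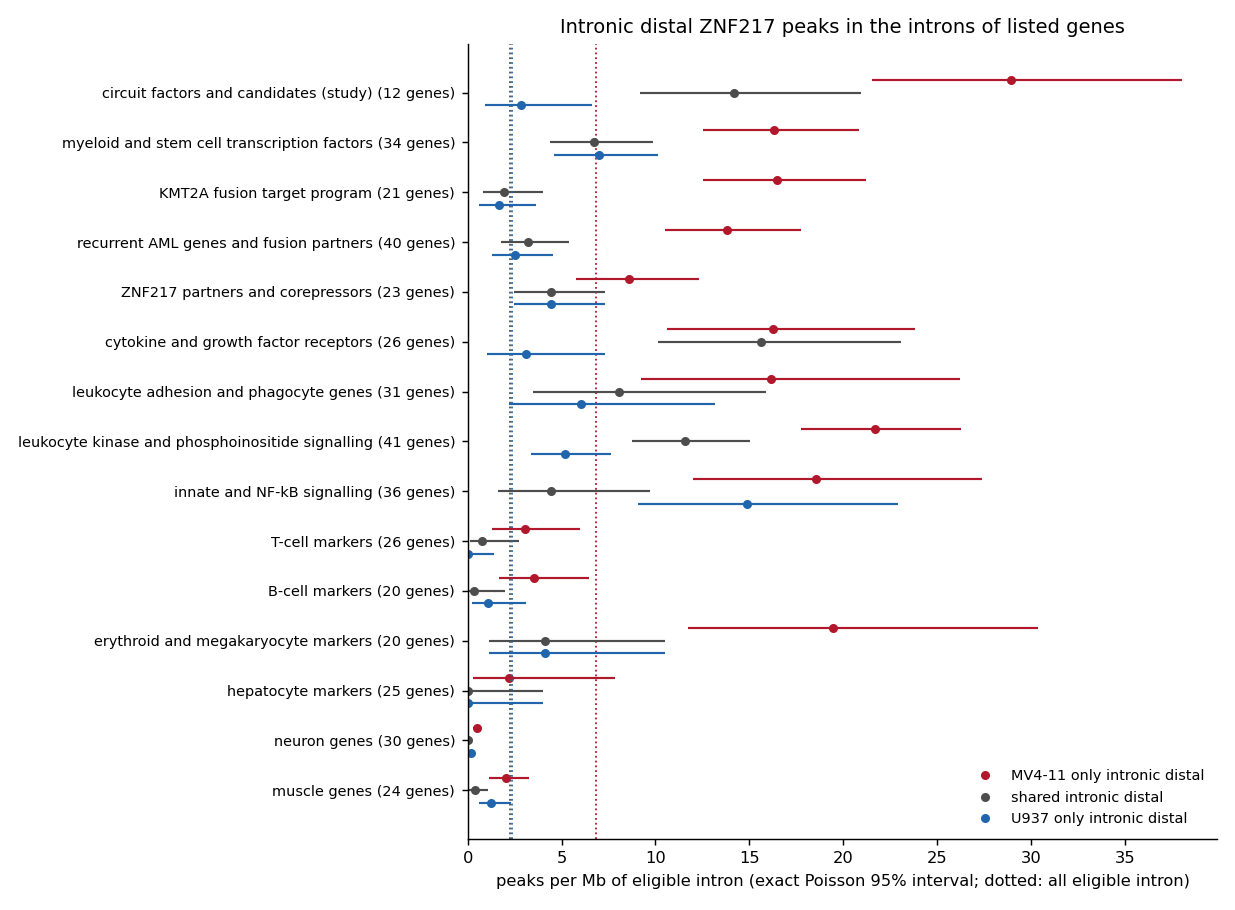
Peaks per Mb of eligible intron (horizontal axis, from 0) in 15 gene lists, for MV4-11 only (red), shared (grey) and U937 only (blue) intronic distal peaks, with exact Poisson 95% intervals and dotted lines at the values over all eligible intron. In the KMT2A fusion target program red stands at 16.5 while grey and blue lie at 1.95 and 1.67, and neuron genes are near 0 in all classes.

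The circuit factors and candidates of the study had the highest density of members among the lists, 51 or 28.9 per Mb (21.5 to 38.0), beside 25 shared and 5 U937 only peaks. These members lay in 10 of 12 genes with eligible intron (83.3%, against 22.9% of all such genes, not matched for intron length). Shared peaks were dense as well, at 14.2 per Mb (9.18 to 20.9). Relative to GC content shared peaks were at 6.32 times (4.09 to 9.33) and members at 4.04 times (3.01 to 5.31). The study itself proposed these genes, so the list is not independent evidence of their direction. RREB1, a RAS-responsive zinc finger factor, held 12 members (329 to 2204 bp), 9 of them in intron 1, with 6 shared and no U937 only peak. ETV6, an ETS repressor, held 10 members, 3 shared and 3 U937 only peaks. MEF2D held 6 members of 476, 816, 906, 1332, 1565 and 2047 bp, 1 shared and no U937 only peak. FOXP1, a forkhead factor, held 6 members and 2 shared peaks over 548 kb of intron. IRF1, an interferon regulatory factor, held 5 narrow members (284 to 572 bp) and 3 shared peaks. ZNF217 itself held 3 members, of 283, 497 and 928 bp between 24.1 and 31.0 kb from its 5′ end, and neither of the other classes. RARA and RUNX2 held 3 each, ELF1 2 and ERG 1. CIC and ZBTB7A held none but 1 and 2 shared peaks, and JUNB has no eligible intron.

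Genes of leukocyte signalling were also rich in members. Leukocyte kinase and phosphoinositide genes had 105 members in 30 of 41 genes (73.2%), 21.7 per Mb (17.8 to 26.3), 2.39 times (1.95 to 2.89) their expectation from GC content, led by PRKCB and PRKCE, protein kinase C genes, with 10 each and PIK3AP1 and PTPRJ with 9 each. This list was also rich in shared peaks, 56 or 11.6 per Mb, beside 2.26 over all eligible intron. Relative to GC content shared peaks were at 3.81 times (2.88 to 4.95), a higher ratio than that of members, although the intervals just overlap. Its 25 U937 only peaks were at 1.59 times (1.03 to 2.34). The high density in these genes was therefore not particular to members. PRKCE had no shared or U937 only peak. Innate and NF-kB genes had 18.6 members per Mb (12.02 to 27.4) but also 14.9 U937 only peaks per Mb (9.07 to 22.9), so that members per U937 only peak were only 1.25 (0.667 to 2.37). IRAK2, an interleukin-1 receptor kinase gene, had 5 members and 9 U937 only peaks, and IRAK3 had 5 and 1. MAP3K14, the NF-kB inducing kinase gene, had 4 members.

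Myeloid and stem cell transcription factor genes had 63 members, 16.3 per Mb (12.5 to 20.8), in 13 of 34 genes (38.2%, against 22.9% of all genes with eligible intron), with RUNX1 (18), NFIC (16), IKZF1 (6) and ZEB2 (6) making up most. They had 27 U937 only peaks, and members per U937 only peak were 2.33 (1.46 to 3.81). Relative to GC content members were at 2.72 times (2.09 to 3.48), shared peaks at 3.56 (2.33 to 5.22) and U937 only peaks at 3.48 (2.29 to 5.06). Recurrent AML genes had 60 members, 13.8 per Mb (10.5 to 17.8), in 14 of 40 genes (35.0%), led by BCOR with 16, FLT3 with 10 and ELL, a transcription elongation factor gene, with 9. The shares of genes in this list and the myeloid one stand against 22.9% of all genes and are not matched for intron length. Cytokine and growth factor receptors had 26 members, 16.2 per Mb (10.6 to 23.8), with INSR at 5, AXL at 4 and IL17RA and IL1RAP at 3 each. Their 25 shared peaks were at 4.94 times (3.20 to 7.29) the number that GC content gives, and the members at 1.73 times (1.13 to 2.53). Adhesion and phagocyte genes had 16 members, 16.1 per Mb (9.23 to 26.2), among them CD44 with 3, CTSB and ITGAX with 2 each and CYBA with 1. Here members were at 2.27 times (1.30 to 3.69) the number that GC content gives and the 8 shared peaks at 3.45 times (1.49 to 6.81).

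ZNF217 partners and corepressors stood out least among the myeloid lists, with 29 members, 8.59 per Mb (5.75 to 12.3), and 0.753 times (0.505 to 1.08) the number their GC content gives. HDAC4 had 8 members and neither other class, CBFA2T3 6 and CTBP2 3. Erythroid and megakaryocyte markers had 19 members, 19.5 per Mb (11.7 to 30.4), of which 7 were in ZFPM1, the cofactor of GATA1, and 4 in ANK1, with TFRC and ITGB3 at 2. Relative to GC content they were at 1.205 times (0.725 to 1.88), within counting error of all intron.

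Neuron and muscle genes were poor in members, while T-cell, B-cell and hepatocyte markers were within counting error of the number that their GC content gives. Neuron genes offered 37.5 Mb of eligible intron and held 18 members, 0.480 per Mb (0.285 to 0.759) and 0.172 times (0.102 to 0.271) the number given by GC content, with CSMD1 at 4, GABRB1 at 3 and NTM and NRG1 at 2 each. Muscle genes had 16 members, 2.01 per Mb (1.15 to 3.27) and 0.471 times (0.269 to 0.765) the number given by GC content, of which RYR1 had 8 and CACNA1C 5, with MYPN at 1. Hepatocyte markers had 2 members, in ASGR1 and CYP2E1, or 2.18 per Mb (0.264 to 7.87) and 0.420 times (0.0509 to 1.52) the expectation. T-cell markers had 8 members, 3.05 per Mb (1.32 to 6.001) and 0.550 times (0.237 to 1.08) the expectation, in CD6 (3), CD4, CD5, ZAP70 and further genes, and no U937 only peak in 2.63 Mb (exact interval up to 1.404 per Mb). B-cell markers had 10, 3.52 per Mb (1.69 to 6.47) and 0.731 times (0.350 to 1.34) the expectation, with PAX5 at 5, EBF1 at 2 and BLK and POU2AF1 at 1.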

How the data were processed

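ZNF217 CUT&Tag libraries of untreated MV4-11 and U937 cells, 1 per line, were analysed, and samples were grouped by title. The submitters' processing notes name Bowtie2 2.4.4, MACS3 3.0 and hg38, and each ZNF217 library has its own peak list. Use of the IgG libraries, duplicate removal and blacklisting are not given in the sources used here. The deposited files hold other values than signal, namely the authors' peak positions (chromosome, start, end) in bp, with no score or count. Depth is therefore unknown. Whether starts count from 0 or 1 is not given, which leaves 1 bp of doubt.

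Peaks were placed by their midpoint against GENCODE 44 and hg38 sequence. A gene body spans all transcripts of the gene, so a member can lie outside the shorter transcripts of its host. Eligible intron is all sequence where a midpoint could qualify: protein-coding gene bodies outside exons, more than 1 kb from a TSS of any transcript of protein-coding or lncRNA genes (1106 Mb). Shares have Wilson, differences Newcombe, densities exact Poisson and ratios exact binomial intervals (95%). GC expectations multiply windows of 300 bp in GC bins of 2% by the rate of each class. No p-value was calculated. Named genes were the 15 hosts with the most members, the 8 densest with 4 or more, up to 4 of each gene list, all circuit candidates, the 8 widest and 3 narrowest members, the 5 densest groups within 50 kb, and 3 peaks on each side of the overlap limit. Printed sequences were chosen by motif and width, with chromosome 8 left out. Some items chosen by these rules are not reported here. Members and lists were chosen with earlier results of these data known. Alternatives were reciprocal overlap of 50%, sharing within 500 bp, a distal limit of 3 kb, other TSS and exon sets, a minimum width of 400 bp, merged peaks, equal list lengths, windows of 200 bp, the whole peak and no GC weights. Scripts were checked on simulated data. Figures were drawn with Matplotlib 3.10.9, and the rest was computed in Python 3.11.15 with pandas 2.3.3, SciPy 1.17.1 and NumPy 2.4.6.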

Additional observations from a re-analysis of the deposited data

How the results depend on the processing

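Of 153 values computed under other settings, 123 kept their direction, their side of the threshold and, for counts and ratios, stayed within the stated margin. The number of members, 7570, was 2993 when the MV4-11 list was cut to its 21737 widest peaks, as many as U937 has, and 4854 when the minimum of 400 bp was set for MV4-11 alone, a setting chosen after the data were seen. Among intronic distal peaks of MV4-11 the share without overlap, 75.2%, was 85.2% with a reciprocal overlap of 50%, 72.9% with sharing within 500 bp, 72.9% with 400 bp in both lists, 62.0% with lists of equal length and 69.0% with 400 bp in MV4-11 alone. The share in intron 1 was 34.5% by the longest transcript.

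Relative to GC content, also chosen after the data were seen, the density against all intron went from 2.41 to 4.93 for KMT2A targets, from 1.25 to 0.753 for ZNF217 partners, from 3.17 to 2.39 for kinase genes, from 2.84 to 1.205 for erythroid and megakaryocyte markers and from 0.0702 to 0.172 for neuron genes. Beyond 3 kb hepatocyte markers had 0.

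Against intronic windows the motif ratios with a 200 bp window were 3.36 for PU.1, 2.58 for RUNX and 1.79 for AP-1. With the whole peak they were 2.58 for PU.1, 4.06 for CTCF and 1.34 for PU.1-IRF. Without GC weights they were 1.81 for RUNX, 0.794 for C/EBP, 0.895 for ZNF217, 16.1 for CTCF and 1.21 for PU.1-IRF, and RUNX was at 2.59 in peaks of 400 bp or more. In these wider peaks the difference from U937 only peaks was -0.451 points for C/EBP, against 0.0486 in all peaks, and the interval held 0 for MYB (1.85) and MEF2 (0.477), as it did for MEF2 with the whole peak (0.400). The cause was not tested.

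The lists hold 1 library per line, no depth and no score, so peaks near the calling limit cannot be told from peaks absent in U937. No paired analysis was possible because the labels give no replicate numbers and each line has a single ZNF217 library.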
